A study of Homo sapiens with 36 samples.

Results

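The SR proteins, the hnRNPs and the CLK kinases that phosphorylate SR proteins were followed here as 39 genes, out of 58243 genes counted in 36 RNA-seq libraries of human pancreatic ductal adenocarcinoma cells. The genes were taken by symbol as named families and not by a measured value, though the choice of these families was made with earlier results of these data known. They are the 11 serine/arginine-rich splicing factors SRSF1 to SRSF11, 6 SR-related proteins (TRA2A, TRA2B, SRRM1, SRRM2, THRAP3 and BCLAF1), 18 hnRNPs and the 4 kinases CLK1 to CLK4. All 39 had a row in the table and passed the filter on low counts in every cell line, so none dropped out of any comparison. Cells of the established lines MIA PaCa-2, PANC-1 and BxPC-3 were treated for 48 h with a 10 µM dose of GW3965, of 1E5 or of 3A4, or with DMSO. GW3965 is an agonist of the liver X receptors (LXR), nuclear receptors that switch on genes of cholesterol export, and the labels call 1E5 and 3A4 LXR inverse agonists, known here by code name only. Each of the 12 groups of line and treatment had 3 libraries, labelled as biological replicates. Whether these came from separate cultures is not stated, so every p-value measures the spread between the libraries, which may be technical. All cells grew in medium with 10% fetal bovine serum, RPMI 1640 for BxPC-3 and DMEM for the other lines, so a difference between BxPC-3 and the others cannot be told apart from one of medium. The labels give no genotype or clone.

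SR proteins bind exonic enhancer sequences through RNA recognition motifs and recruit the spliceosome through arginine/serine repeats, mostly favouring inclusion of an exon. The hnRNPs coat nascent RNA and often act against SR proteins at the same exon, and many also take part in RNA transport, stability and translation. CLK kinases phosphorylate the arginine/serine repeats and release SR proteins from nuclear speckles. Many SR protein and hnRNP genes limit their own level by splicing that sends the transcript to nonsense-mediated decay.

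Values are CPM (counts relative to library depth, with the depths of a line scaled by the trimmed mean of M-values) and are given in the order of replicates 1, 2 and 3. Fold changes are on the log2 scale with a standard error (SE), n = 3 libraries a group, and a gene was called where edgeR's quasi-likelihood test over all genes of a line gave a Benjamini-Hochberg adjusted p under 0.05. Total counts were 19605935 to 25888304 per library in BxPC-3, 14960970 to 26026684 in PANC-1 and 2701393 to 25503827 in MIA PaCa-2. The 2 shallowest were replicate 3 of GW3965 and replicate 3 of DMSO in MIA PaCa-2.

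As a check of the treatments, ABCA1, an LXR target that exports cholesterol, averaged 337 ± 15.9 CPM with GW3965 and 44.9 ± 11.6 CPM with DMSO in BxPC-3, 190 ± 43.7 CPM with GW3965 and 7.35 ± 1.58 CPM with DMSO in PANC-1 and 102 ± 27.8 CPM with GW3965 and 13.5 ± 3.95 CPM with DMSO in MIA PaCa-2 (SD, n = 3 each). ABCG1, another such target, averaged 41.55 ± 2.53 CPM with GW3965 and 1.16 ± 0.364 CPM with DMSO in PANC-1 and 116 ± 27.7 CPM with GW3965 and 14.3 ± 2.68 CPM with DMSO in MIA PaCa-2, but did not pass the test in BxPC-3, with 8.85 ± 3.78 CPM with GW3965 and 9.05 ± 2.76 CPM with DMSO. Neither target was called lower with an inverse agonist in any line. ABCG1 was called higher with 1E5, although the labels call 1E5 an inverse agonist: it averaged 5.99 ± 1.95 CPM with 1E5 and 1.16 ± 0.364 CPM with DMSO in PANC-1 (log2 fold change 2.36 ± 0.27, adjusted p = 6.37e-05) and 43.95 ± 21.7 CPM with 1E5 and 14.3 ± 2.68 CPM with DMSO in MIA PaCa-2 (log2 fold change 1.62 ± 0.39, adjusted p = 0.00419). With 3A4 neither was called, at log2 fold changes between -0.81 (ABCG1 in MIA PaCa-2) and 0.20 (ABCA1 in PANC-1). The epithelial markers EPCAM and CDH1 were at or below 0.77 CPM in every MIA PaCa-2 library, while KRT8 and KRT18 were present in every line and the leukocyte marker PTPRC was at or below 0.08 CPM throughout. In MIA PaCa-2, 4 of the 10 markers of other cell types were at 0 in all 12 libraries (PTPRC, CD3E, PECAM1 and INS). The summed level of the 10 was 9.18 to 28.9 CPM with 1E5, against 286 to 297 CPM with DMSO, most of it COL1A2. In PANC-1 the same sum was 5.36 to 17.2 CPM with 1E5, against 55.1 to 181 CPM with DMSO. Their part in the splicing factor results was not tested. Replicate 2 of 1E5 in PANC-1 stood apart from replicates 1 and 3, with 6.59% of its counts on mitochondrial genes against 2.69% and 3.91%, so the counts of called genes with 1E5 in PANC-1, and the members whose call depends on it, are also given without it.

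With GW3965 none of the 39 genes was called in any line. The share of all tested genes called was 1.32% in BxPC-3, 0.0485% in PANC-1 and 0.523% in MIA PaCa-2, so a count of 0 among 39 is near that background. At an unadjusted p under 0.05 the test picked SRSF3 and CLK3 in BxPC-3, 0 genes in PANC-1 and SRRM2 and HNRNPR in MIA PaCa-2, and DESeq2 called 1 member, SRSF3, in BxPC-3 and 0 in the other lines. Log2 fold changes, HNRNPH2 aside, lay between -0.35 (SRSF3) and 0.29 (CLK2) in BxPC-3, between -0.22 (HNRNPM) and 0.07 (SRSF4) in PANC-1 and between -0.70 (SRRM2) and 0.15 (HNRNPC) in MIA PaCa-2. Their 95% intervals reached no further than -0.65 and 0.69 in BxPC-3, -0.91 and 0.84 in PANC-1 and -1.36 and 0.59 in MIA PaCa-2. Most members stood below 0: 29 below and 10 above in BxPC-3, 36 and 3 in PANC-1 and 31 and 8 in MIA PaCa-2. The median over all genes was -0.00369, -0.000427 and -0.00142 in the same lines. Members held 0.883% of the counts with GW3965 and 0.97% with DMSO in BxPC-3, 0.92% and 1.0% in PANC-1 and 0.864% and 0.918% in MIA PaCa-2. This direction was not tested. SRSF3, an SR protein that links splicing to mRNA export, had 165, 161 and 169 CPM in the GW3965 libraries, against 209, 201 and 221 CPM in the DMSO libraries in BxPC-3 (log2 fold change -0.35 ± 0.09, adjusted p = 0.121).

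BxPC-3 also gave 0 calls among the members with either inverse agonist. With 1E5, 0% of its 18042 tested genes were called, no member had an unadjusted p under 0.05, DESeq2 called 0, and the members' fold changes lay between -0.17 (SRSF6) and 0.31 (SRSF7), HNRNPH2 aside, with intervals reaching -0.51 and 0.64. With 3A4, 0.0333% of genes were called. The lowest adjusted p among the members was that of HNRNPDL, an hnRNP D paralog, with 226, 249 and 249 CPM in the 3A4 libraries, against 341, 328 and 308.5 CPM in the DMSO libraries (log2 fold change -0.43 ± 0.09, adjusted p = 0.117). Its 3A4 libraries were all below its DMSO libraries, while groups did not overlap in 19.1% of all genes, and it did not pass the threshold. SRSF11, HNRNPDL and HNRNPU had an unadjusted p under 0.05 with 3A4, and DESeq2 called 1 member, HNRNPDL.

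**Figure D1:**
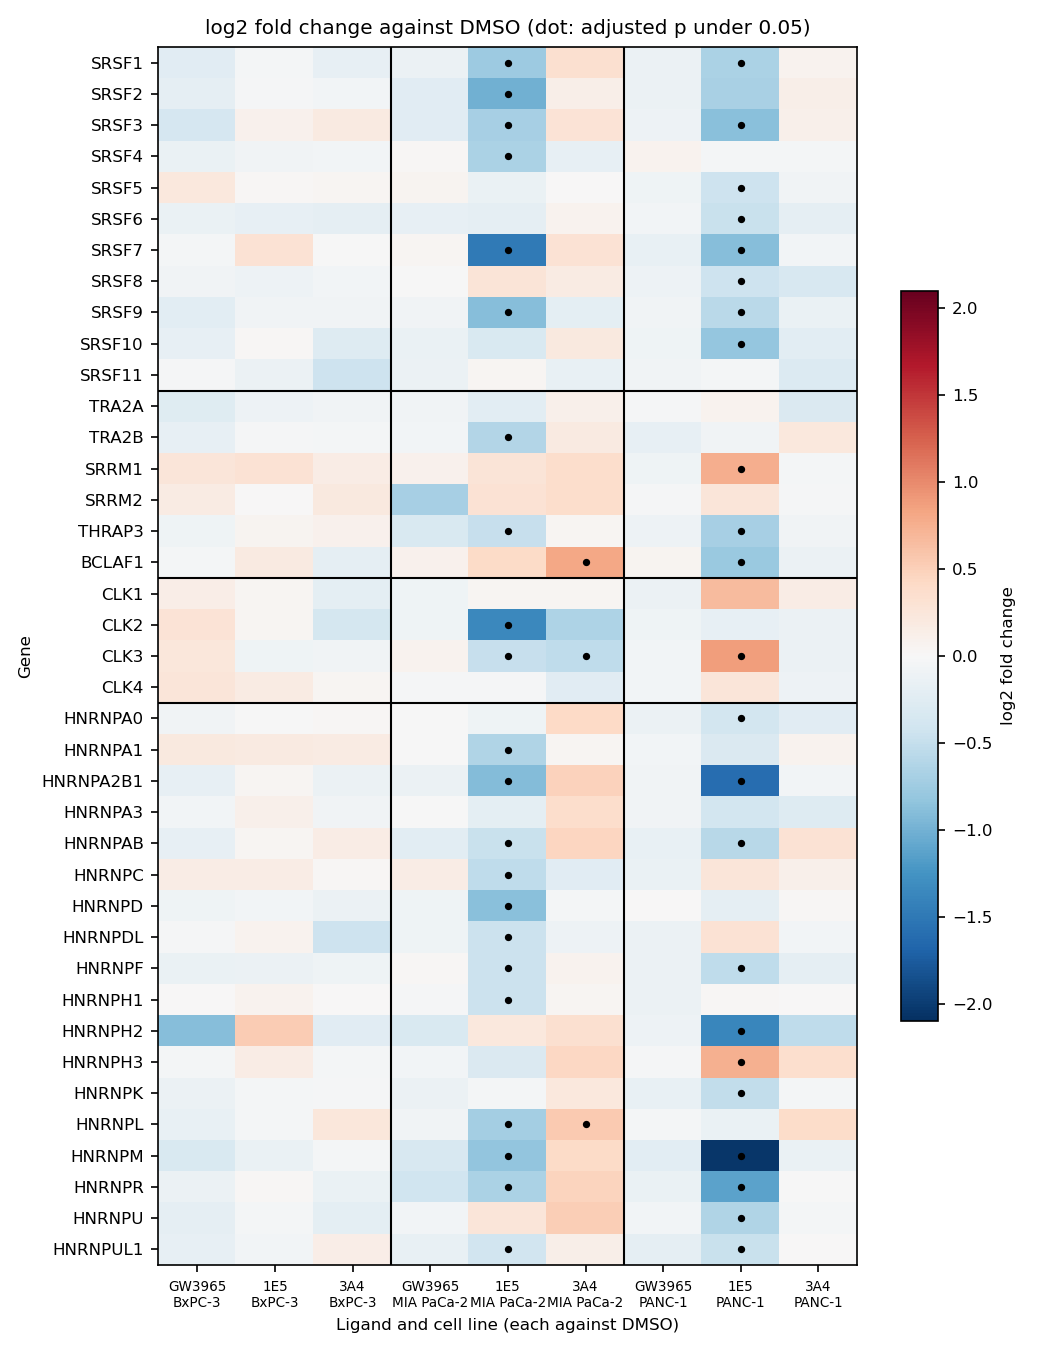
Log2 fold change of each of the 39 genes against DMSO, by line and ligand, as colour; a dot marks an adjusted p under 0.05. Dots stand almost only in the 1E5 columns of MIA PaCa-2 and PANC-1, where 22 and 20 members were called lower and 0 and 3 higher.

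1E5 lowered 22 of the 39 genes in MIA PaCa-2; the other 17 were not called, and none was called higher. Any call was as common among the members as elsewhere, 56.4% against 47% of all 16254 tested genes and 60% of the genes at or above the lowest member's mean level. The direction differed: 0 members were called higher, against 23.6% of all genes, and 56.4% lower, against 23.4% of all genes and 32.9% of those at or above the lowest member's level. The members' median log2 fold change was -0.449, beside 0.0496 over all genes. Together they held 0.798% ± 0.0551 of the counts with 1E5 and 0.918% ± 0.0735 with DMSO (SD, n = 3 each). Mitochondrial genes moved too, at 2.04% ± 0.722 with 1E5 and 7.54% ± 0.0321 with DMSO, and the ductal markers summed to 539.7 to 607 CPM with 1E5, against 1364 to 1688 CPM with DMSO; their part in the result was not tested. In bulk libraries such as these, fewer cells of one kind and less RNA per cell cannot be told apart. The number called depended on the settings: 14 with scaling by library totals alone, 13 lower and 1 higher (SRRM1), and 13 with no filter on low counts. The shares of all genes called under these settings are not given here.

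Among the SRSF proteins of MIA PaCa-2, 6 of 11 fell with 1E5 and their median log2 fold change was -0.66. SRSF7 (ENSG00000115875, chromosome 2, 38743599 to 38751494, minus strand, GRCh38), a zinc-knuckle SR protein that shuttles between nucleus and cytoplasm, had 76.8, 72.1 and 59.3 CPM in the 1E5 libraries, against 222.5, 171 and 189 CPM in the DMSO libraries. The 1E5 libraries lay far below the DMSO ones, with no overlap (log2 fold change -1.48 ± 0.15, adjusted p = 9.52e-06), the largest fall of the 39. SRSF2 (ENSG00000161547, chromosome 17, 76734115 to 76737374, minus strand), a nuclear-retained SR protein, had 40.5, 44.3 and 37.1 CPM in the 1E5 libraries, against 80.5, 89.15 and 74.0 CPM in the DMSO libraries (log2 fold change -1.002 ± 0.15, adjusted p = 0.000213). Its 1E5 and DMSO libraries did not overlap. SRSF9, one of the smallest SR proteins, had 74.5, 86.5 and 84.2 CPM in the 1E5 libraries, against 136, 162 and 160.1 CPM in the DMSO libraries (log2 fold change -0.90 ± 0.13, adjusted p = 0.000131). SRSF1, the founding SR protein, had 191, 165 and 147 CPM in the 1E5 libraries, against 291, 326 and 232 CPM in the DMSO libraries (log2 fold change -0.76 ± 0.17, adjusted p = 0.00252). SRSF3, which also takes part in mRNA export, had 160.1, 141 and 100 CPM in the 1E5 libraries, against 203, 242 and 206 CPM in the DMSO libraries (log2 fold change -0.70 ± 0.18, adjusted p = 0.00644). For SRSF9, SRSF1 and SRSF3 too, no 1E5 library reached the lowest DMSO library. SRSF4 fell with a log2 fold change of -0.66. SRSF5, SRSF6, SRSF8, SRSF10 and SRSF11 were not called, with log2 fold changes between -0.32 (SRSF10) and 0.28 (SRSF8).

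Of the SR-related proteins, TRA2B and THRAP3 fell and the other 4 were not called. TRA2B, which binds GAA-rich exonic enhancers, had 114, 113 and 121 CPM in the 1E5 libraries, against 185, 180.3 and 165 CPM in the DMSO libraries (log2 fold change -0.61 ± 0.12, adjusted p = 0.00138). THRAP3, a nuclear speckle protein that also binds transcription complexes, had 166, 179 and 109 CPM in the 1E5 libraries, against 212, 231 and 192 CPM in the DMSO libraries and was close to the threshold (log2 fold change -0.48 ± 0.18, adjusted p = 0.0469). TRA2A had a log2 fold change of -0.22, SRRM1 of 0.27, SRRM2 of 0.31 and BCLAF1 of 0.40. BCLAF1 was called higher in the fit of all 36 libraries (adjusted p = 0.0366) and without replicate 3 of 1E5 (0.044). CLK2 (ENSG00000176444, chromosome 1, 155262868 to 155278491, minus strand), a kinase of the SR proteins, had 33.9, 36.2 and 45.0 CPM in the 1E5 libraries, against 107, 91.4 and 94.6 CPM in the DMSO libraries. It fell more than any member but SRSF7 and its groups did not overlap (log2 fold change -1.35 ± 0.23, adjusted p = 0.00038), whereas CLK1 at 0.04 and CLK4 at -0.03 were not called. CLK3 fell as well (log2 fold change -0.49 ± 0.15, adjusted p = 0.0198), but EDC3, which overlaps it on the opposite strand, held 85.2% as many counts, and the strand setting of the count is not given in the sources used here.

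The hnRNPs of MIA PaCa-2 had 12 of 18 members lower with 1E5 and a median log2 fold change of -0.45. HNRNPA2B1 (ENSG00000122566, chromosome 7, 26173057 to 26201529, minus strand), a core hnRNP that binds exonic silencers and also reads modified RNA, had 633, 675 and 492 CPM in the 1E5 libraries, against 1099, 1326 and 945 CPM in the DMSO libraries. Its 1E5 values were all under its lowest DMSO value (log2 fold change -0.91 ± 0.17, adjusted p = 0.000789). HNRNPD (AUF1), which also binds AU-rich elements in unstable mRNAs, had 101, 86.6 and 114 CPM in the 1E5 libraries, against 182.5, 237 and 133 CPM in the DMSO libraries (log2 fold change -0.88 ± 0.19, adjusted p = 0.00247). HNRNPL, which binds CA repeats, had 129.8, 134 and 139.7 CPM in the 1E5 libraries, against 255, 212.5 and 192 CPM in the DMSO libraries (log2 fold change -0.71 ± 0.13, adjusted p = 0.000689). The groups of both genes were apart. HNRNPM, which binds GU-rich RNA, had 176, 160.2 and 90.3 CPM in the 1E5 libraries, against 277, 300.5 and 181 CPM in the DMSO libraries (log2 fold change -0.83 ± 0.25, adjusted p = 0.0148). HNRNPR, a paralog of SYNCRIP, had 137, 132 and 96.0 CPM in the 1E5 libraries, against 171, 233 and 175.5 CPM in the DMSO libraries (log2 fold change -0.67 ± 0.19, adjusted p = 0.0109). HNRNPAB, a relative of HNRNPD, had 268, 259.7 and 192 CPM in the 1E5 libraries, against 329.8, 357 and 311 CPM in the DMSO libraries (log2 fold change -0.47 ± 0.18, adjusted p = 0.0427). In these 3 too the groups did not overlap, by the smallest margin in HNRNPM. HNRNPC fell with a log2 fold change of -0.54. HNRNPA1 had one of -0.63, with the reservation that its 76 named copies elsewhere in the genome held 160.7% as many counts as the gene itself; summed with them it stood at -0.93.

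The smallest called changes were those of HNRNPDL, HNRNPF, HNRNPH1 and HNRNPUL1. HNRNPUL1, an hnRNP U paralog, had 229, 239.8 and 233 CPM in the 1E5 libraries, against 348, 316 and 261 CPM in the DMSO libraries (log2 fold change -0.40 ± 0.14, adjusted p = 0.0369). HNRNPF and HNRNPH1 are related factors that bind G-runs, and HNRNPF had 288, 249 and 279 CPM in the 1E5 libraries, against 372, 418 and 323.5 CPM in the DMSO libraries (log2 fold change -0.45 ± 0.13, adjusted p = 0.0111). HNRNPH1 had 167, 160.3 and 156 CPM in the 1E5 libraries, against 228, 212 and 218.5 CPM in the DMSO libraries (log2 fold change -0.45 ± 0.13, adjusted p = 0.0115). HNRNPDL had 197, 171 and 204 CPM in the 1E5 libraries, against 232, 303 and 246 CPM in the DMSO libraries (log2 fold change -0.45 ± 0.14, adjusted p = 0.0182). In each of these 4 the highest 1E5 library lay under the lowest DMSO library, as it did in all 22 called members, beside 60.5% of all genes with groups that did not overlap in either direction. HNRNPA0, HNRNPA3, HNRNPH2, HNRNPH3, HNRNPK and HNRNPU were not called, between -0.31 (HNRNPH3) and 0.25 (HNRNPU). Leaving out the 6 libraries one at a time kept the call of 11 of the 22, namely SRSF1, SRSF2, SRSF3, SRSF7, SRSF9, TRA2B, CLK2, HNRNPA1, HNRNPA2B1, HNRNPD and HNRNPL. The other 11 lost it in 1 to 5 of the 6 fits, each library ended at least 1 call, and the highest adjusted p so reached was 0.204 for SRSF4.

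**Figure D2:**
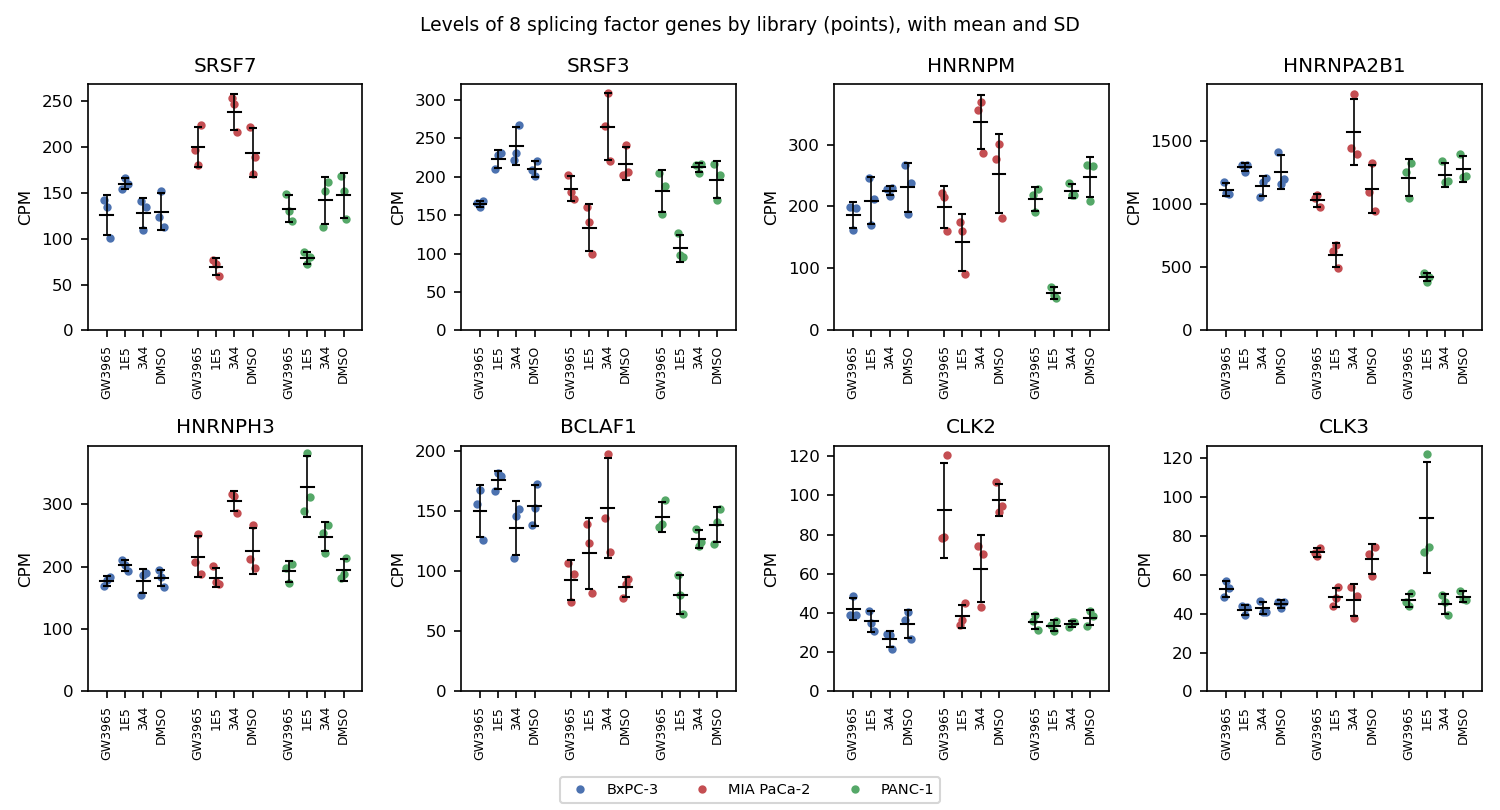
CPM of lead members in each library, by line and treatment, with the group mean and SD of 3. SRSF7 in MIA PaCa-2 and HNRNPM in PANC-1 stand at 59.3 to 76.8 CPM and 52.7 to 70.4 CPM with 1E5, below all other libraries of their line.

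In PANC-1, 1E5 again lowered most of the called members, but not all: 20 fell, 3 rose and 16 were not called. That is 59% of members called, beside 39.1% of the 18544 genes tested and 48.6% of those at or above the lowest member's level. Lower calls made up 51.3% of the members, against 19.3% of all genes and 25.4% of those at the members' level, and higher calls 7.69%, against 19.7% of all genes. The members' median log2 fold change was -0.434, beside 0.0172 over all genes. They held 0.751% ± 0.0358 of the counts with 1E5 and 1.0% ± 0.0373 with DMSO (SD, n = 3 each). Mitochondrial genes held 4.40% ± 2.0 with 1E5 and 6.82% ± 0.707 with DMSO, and the ductal markers summed to 768 to 952 CPM with 1E5, against 3261 to 5097 CPM with DMSO; their part in the result was not tested. Without replicate 2 of 1E5 the count was 26 members, 23 lower and 3 higher, beside 3953 lower and 3836 higher of 19166 genes tested. Of the 26, 22 were among the 23 called with that replicate included. HNRNPAB was the one lost, at an adjusted p of 0.054. The 4 members then also called lower were SRSF2 (log2 fold change -1.14), HNRNPL (-1.04), HNRNPA3 (-0.65) and HNRNPA1 (-0.60).

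The hnRNPs had the deepest falls in PANC-1, with 10 of 18 lower, 1 higher and a median log2 fold change of -0.42. HNRNPM (ENSG00000099783, chromosome 19, 8444767 to 8489114, plus strand), known for its part in splicing during the epithelial to mesenchymal transition, had 70.35, 57.4 and 52.7 CPM in the 1E5 libraries, against 268, 209.6 and 265 CPM in the DMSO libraries. Every 1E5 library was far under every DMSO library, and this was the largest change of any member in the comparisons made here (log2 fold change -2.04 ± 0.14, adjusted p = 1.98e-06). HNRNPA2B1 had 457, 387 and 428 CPM in the 1E5 libraries, against 1401, 1216 and 1229 CPM in the DMSO libraries (log2 fold change -1.60 ± 0.12, adjusted p = 3.76e-06), again without overlap. HNRNPR had 127, 144 and 103.5 CPM in the 1E5 libraries, against 258, 256 and 303 CPM in the DMSO libraries (log2 fold change -1.13 ± 0.13, adjusted p = 5.51e-05). HNRNPU, a nuclear scaffold protein, averaged 384 ± 84.9 CPM with 1E5 and 594 ± 7.29 CPM with DMSO (SD, n = 3 each; log2 fold change -0.63 ± 0.14, adjusted p = 0.00427). HNRNPK, which binds C-rich RNA, averaged 506 ± 18.0 CPM with 1E5 and 723 ± 73.7 CPM with DMSO (log2 fold change -0.51 ± 0.10, adjusted p = 0.00225). The 1E5 libraries of both lay under the DMSO ones. HNRNPF had 361, 404 and 338 CPM in the 1E5 libraries, against 551, 497 and 548 CPM in the DMSO libraries (log2 fold change -0.53 ± 0.10, adjusted p = 0.00138). HNRNPAB had 139.5, 102.5 and 129 CPM in the 1E5 libraries, against 221, 151 and 180.5 CPM in the DMSO libraries (log2 fold change -0.58 ± 0.17, adjusted p = 0.0183). HNRNPUL1 had 169, 147 and 146 CPM in the 1E5 libraries, against 231, 190.5 and 216 CPM in the DMSO libraries (log2 fold change -0.46 ± 0.10, adjusted p = 0.00391). All 3 had groups that did not overlap. The same held, in either direction, for 47.6% of all genes tested with 1E5 against DMSO in PANC-1. HNRNPA0, a small hnRNP of the A family, had 172, 141 and 170 CPM in the 1E5 libraries, against 216, 207 and 209 CPM in the DMSO libraries (log2 fold change -0.39 ± 0.10, adjusted p = 0.0104), the mildest called fall of the line.

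For HNRNPH2 and HNRNPL of PANC-1 a single library carried much of the value. HNRNPH2 had 116, 129 and 18.8 CPM in the 1E5 libraries, against 213, 247 and 223 CPM in the DMSO libraries and was called (log2 fold change -1.37 ± 0.47, adjusted p = 0.0387). Its replicate 3 of 1E5 is far under the other two, a pattern this gene showed in single libraries of other groups as well. HNRNPL had 217, 769.9 and 210.4 CPM in the 1E5 libraries, against 495, 366.5 and 460.5 CPM in the DMSO libraries and was not called (log2 fold change -0.14 ± 0.40, adjusted p = 0.806). Its replicates 1 and 3 of 1E5 were below all DMSO libraries and its replicate 2 above them all. HNRNPA1, HNRNPA3, HNRNPC, HNRNPD, HNRNPDL and HNRNPH1 were not called either, between -0.38 (HNRNPA3) and 0.30 (HNRNPDL). HNRNPH3, an hnRNP H paralog, rose instead, with 289, 383 and 312 CPM in the 1E5 libraries, against 182, 188 and 214 CPM in the DMSO libraries (log2 fold change 0.75 ± 0.13, adjusted p = 0.000905). All its 1E5 libraries were above all its DMSO libraries, and without replicate 2 of 1E5 the log2 fold change was 0.63.

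Among the SRSF proteins of PANC-1, 8 of 11 fell and none rose, with a median log2 fold change of -0.57. SRSF7 had 85.5, 72.6 and 79.8 CPM in the 1E5 libraries, against 169, 152 and 121 CPM in the DMSO libraries (log2 fold change -0.89 ± 0.16, adjusted p = 0.00119). SRSF3 had 127, 98.3 and 95.4 CPM in the 1E5 libraries, against 217, 169 and 203 CPM in the DMSO libraries (log2 fold change -0.88 ± 0.15, adjusted p = 0.000804). Both were lower in every 1E5 library than in any DMSO library. SRSF10, an SR protein that acts as a splicing repressor when dephosphorylated, had 89.0, 79.0 and 99.3 CPM in the 1E5 libraries, against 140.4, 150 and 181 CPM in the DMSO libraries (log2 fold change -0.82 ± 0.12, adjusted p = 0.000328). SRSF1 had 154, 254 and 146 CPM in the 1E5 libraries, against 298, 265 and 314 CPM in the DMSO libraries (log2 fold change -0.66 ± 0.19, adjusted p = 0.0151). SRSF9 had 113, 130.1 and 113 CPM in the 1E5 libraries, against 188, 163 and 177 CPM in the DMSO libraries (log2 fold change -0.57 ± 0.11, adjusted p = 0.00155). In SRSF1 the second 1E5 library came close to the lowest DMSO library, while SRSF9 and SRSF10 were well apart. SRSF6 fell with a log2 fold change of -0.47, SRSF5 of -0.44 and SRSF8 of -0.43. SRSF2 missed the threshold, with 47.15, 89.9 and 37.8 CPM with 1E5, against 98.0, 81.2 and 101.5 CPM with DMSO (log2 fold change -0.68 ± 0.26, adjusted p = 0.0531), its second 1E5 library lying within the DMSO range. SRSF2 was called lower with library totals (adjusted p = 0.015), the replicate block (0.0461), DESeq2 (0.0294) and all 36 libraries in 1 fit (0.00756). SRSF4 at -0.04 and SRSF11 at -0.04 were not called.

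The SR-related proteins and the kinases of PANC-1 were split. BCLAF1, a nuclear speckle partner of THRAP3, had 97.2, 80.0 and 64.5 CPM in the 1E5 libraries, against 123, 141 and 152 CPM in the DMSO libraries (log2 fold change -0.78 ± 0.15, adjusted p = 0.00145), and THRAP3 had 149.8, 135 and 131 CPM in the 1E5 libraries, against 231.5, 225 and 217 CPM in the DMSO libraries (log2 fold change -0.70 ± 0.09, adjusted p = 0.000159). The groups of both did not overlap. SRRM1 (ENSG00000133226, chromosome 1, 24631716 to 24673267, plus strand), a coactivator that bridges SR proteins and snRNPs, rose, with 103, 179 and 133 CPM in the 1E5 libraries, against 87.7, 75.7 and 80.2 CPM in the DMSO libraries (log2 fold change 0.77 ± 0.17, adjusted p = 0.00502). CLK3 (ENSG00000179335, chromosome 15, 74598500 to 74645414, plus strand) rose as well, with 71.6, 122 and 74.4 CPM in the 1E5 libraries, against 51.9, 47.6 and 46.9 CPM in the DMSO libraries (log2 fold change 0.87 ± 0.19, adjusted p = 0.00333). In both genes the second 1E5 library is the highest, and without it the log2 fold changes were 0.54 for SRRM1 and 0.58 for CLK3, both still called. EDC3, which overlaps CLK3 on the opposite strand, had 68.8, 54.4 and 56.9 CPM with 1E5 and 46.3, 42.9 and 45.2 CPM with DMSO. TRA2A at 0.07, TRA2B at -0.07, SRRM2 at 0.25, CLK1 at 0.66, CLK2 at -0.17 and CLK4 at 0.25 were not called. CLK1 was called higher with the replicate block (adjusted p = 0.0214), in the fit of all 36 libraries (0.0242) and without replicate 1 of 1E5 (0.0413). Leaving out the 6 libraries one at a time kept 18 of the 23 calls. HNRNPAB, HNRNPH2, SRSF1, SRSF5 and SRSF8 lost theirs in 2 to 4 of the 6 fits, each library ended at least 1 of these calls, and the highest adjusted p was 0.106 for SRSF8.

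In the 2 lines with a response to 1E5, 11 members fell in both: SRSF1, SRSF3, SRSF7, SRSF9, THRAP3, HNRNPA2B1, HNRNPAB, HNRNPF, HNRNPM, HNRNPR and HNRNPUL1. These 11 are 50.0% of the members lower in MIA PaCa-2, while 51.3% of all members were lower in PANC-1. They are 55% of those lower in PANC-1, while 56.4% of all members were lower in MIA PaCa-2. The overlap is thus close to the separate rates of the lines and does not by itself show a shared response. The share of all genes lower in both lines is not given here. CLK3 was called in opposite directions, lower in MIA PaCa-2 at -0.49 and higher in PANC-1 at 0.87. 10 members were called in MIA PaCa-2 alone and 11 in PANC-1 alone, counts that do not by themselves show a difference between lines. 6 members, SRSF11, TRA2A, SRRM2, HNRNPA3, CLK1 and CLK4, were called in neither.

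**Figure D3:**
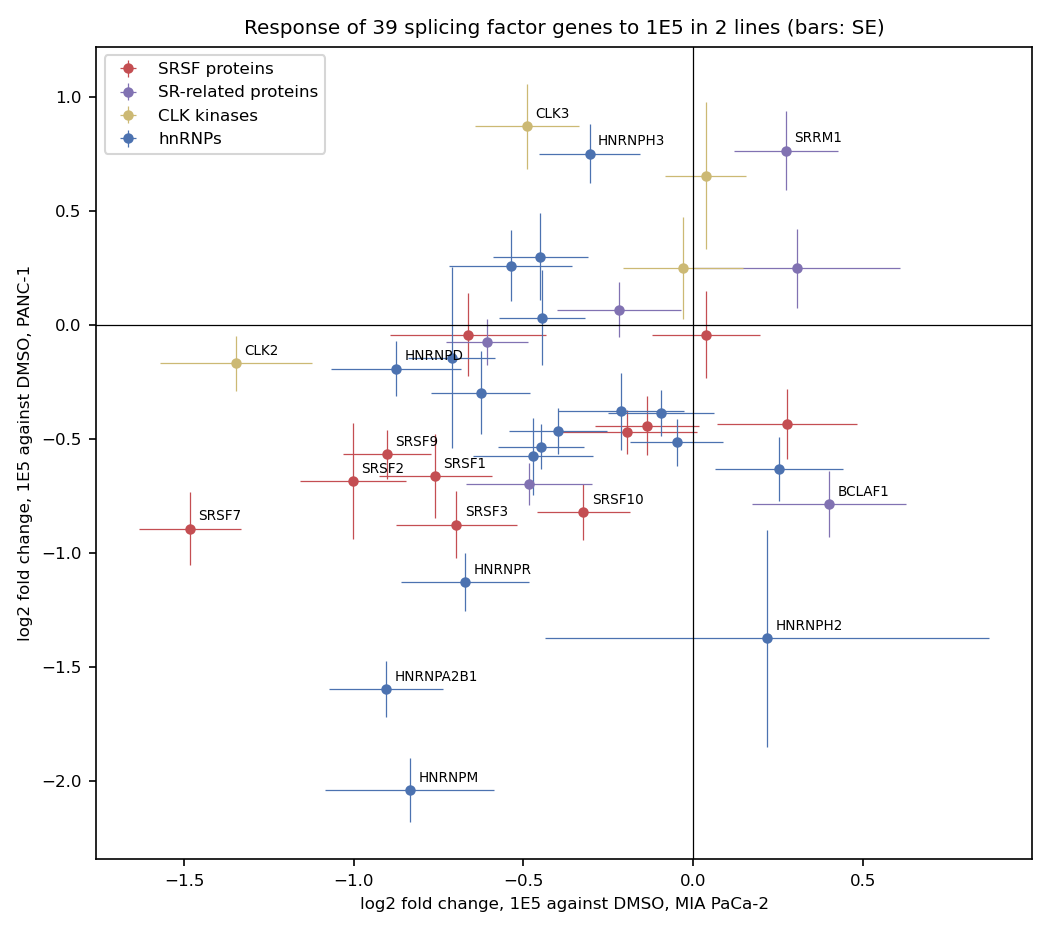
Log2 fold change with 1E5 against DMSO in PANC-1 plotted against that in MIA PaCa-2, 1 point a member with its SE in each line, coloured by class. The 11 members called lower in both lie at the lower left, CLK3 lies at the upper left, and the axes share no library.

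The difference itself was tested over the 36 libraries, asking whether the response to a ligand differed among the 3 lines. For 1E5 it did in 23 of the 39 members, beside 38.5% of the 22132 genes tested. The 4 lowest adjusted p-values were those of HNRNPA2B1, SRSF7, HNRNPM and CLK3. HNRNPA2B1 stood at -0.91 in MIA PaCa-2, -1.60 in PANC-1 and 0.04 in BxPC-3 (adjusted p = 1.08e-06). SRSF7 stood at -1.48, -0.89 and 0.31 in the same lines (adjusted p = 1.95e-06). HNRNPM stood at -0.83, -2.04 and -0.14 (adjusted p = 2.36e-05). For CLK3, with its opposite signs, the values were -0.49, 0.87 and -0.09 (adjusted p = 3.95e-05). In BxPC-3 HNRNPA2B1 had 1316, 1257 and 1314 CPM in the 1E5 libraries, against 1415, 1163 and 1202 CPM in the DMSO libraries, and SRSF7 had 155, 167 and 159 CPM with 1E5, against 123, 152 and 113 CPM with DMSO. HNRNPM had 245, 169.8 and 213 CPM with 1E5, against 266.5, 189 and 238 CPM with DMSO and CLK3 43.7, 39.2 and 43.5 CPM with 1E5, against 46.1, 42.7 and 46.0 CPM with DMSO in that line. The SRSF7 libraries with 1E5 were just above those with DMSO there, and the groups of the other 3 genes overlapped. Groups did not overlap in 8.51% of all genes with 1E5 in BxPC-3. CLK2 was low in MIA PaCa-2, at -1.35, against -0.17 and 0.05 (adjusted p = 0.000386), and BCLAF1 in PANC-1, at -0.78, against 0.40 in MIA PaCa-2 and 0.19 in BxPC-3 (adjusted p = 0.00069). With GW3965 the response differed in 0 members, beside 0.104% of genes, and with 3A4 in 4, beside 5.89%: BCLAF1 (adjusted p = 0.0117), HNRNPA0 (0.0273), HNRNPA2B1 (0.0355) and HNRNPU (0.0406). The 4 calls with 3A4 did not all hold when libraries were left out one at a time, which gave 0 to 6 calls and kept none of the 4 throughout, and no filter on low counts took the 23 calls with 1E5 to 15. Without replicate 2 of 1E5 in PANC-1 the 1E5 response again differed in 23 members, with HNRNPA3 (adjusted p = 0.0188) and HNRNPL (0.00054) gained and HNRNPC (0.115) and HNRNPDL (0.134) lost.

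The 4 genes of the 3A4 test had the following levels. BCLAF1 had 111, 146 and 152 CPM with 3A4, against 138.5, 153 and 172.5 CPM with DMSO in BxPC-3 and 135, 121 and 124.5 CPM with 3A4, against 123, 141 and 152 CPM with DMSO in PANC-1. The groups overlapped in both lines, and its higher values in MIA PaCa-2 are given with the calls against DMSO. HNRNPA2B1 had 1449, 1878 and 1403 CPM with 3A4, against 1099, 1326 and 945 CPM with DMSO in MIA PaCa-2. In BxPC-3 it had 1060, 1182 and 1209 CPM with 3A4, against 1415, 1163 and 1202 CPM with DMSO, and in PANC-1 1342, 1179 and 1184 CPM with 3A4, against 1401, 1216 and 1229 CPM with DMSO. The gene was thus higher with 3A4 on average in MIA PaCa-2 and not in the others, by log2 fold changes of 0.49 there, -0.13 in BxPC-3 and -0.05 in PANC-1. HNRNPA0 had 283, 316 and 270 CPM with 3A4, against 222, 253.5 and 175 CPM with DMSO in MIA PaCa-2. In BxPC-3 HNRNPA0 had 160.4, 161 and 181 CPM with 3A4, against 171, 154 and 168 CPM with DMSO. In PANC-1 it had 182, 182 and 172 CPM with 3A4, against 216, 207 and 209 CPM with DMSO. Its 3A4 libraries were thus all above the DMSO libraries in MIA PaCa-2, all below them in PANC-1 and mixed with them in BxPC-3 (log2 fold changes 0.42, -0.23 and 0.03). HNRNPU had 681, 994 and 596 CPM with 3A4, against 512, 605 and 475 CPM with DMSO in MIA PaCa-2. In BxPC-3 HNRNPU had 473, 539 and 505 CPM with 3A4, against 613, 543.5 and 601 CPM with DMSO. In PANC-1 it had 601, 538.5 and 583 CPM with 3A4, against 595, 601 and 586 CPM with DMSO. Here the MIA PaCa-2 and PANC-1 groups overlapped and the BxPC-3 groups were just apart, with log2 fold changes of 0.51 in MIA PaCa-2, -0.05 in PANC-1 and -0.21 in BxPC-3. Groups did not overlap in 36.1% of all genes with 3A4 in MIA PaCa-2, 37.3% in PANC-1 and 19.1% in BxPC-3.

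3A4, the other inverse agonist, gave few calls among the members against DMSO. In MIA PaCa-2 2 rose and 1 fell, 7.69% of the members, beside 13.8% of all genes called (7.3% higher and 6.45% lower). The share was 19.2% among genes at or above the lowest member's mean level. So small a count does not set the members apart from these shares. Called or not, 30 members stood above 0 and 9 below in that line, beside a median log2 fold change of 0.0287 over all genes. There the members held 1.13% ± 0.133 of the counts with 3A4 and 0.918% ± 0.0735 with DMSO (SD, n = 3 each). In PANC-1 and in BxPC-3, 13 members stood above 0 and 26 below. These directions were not tested. HNRNPL had 334, 324 and 307.5 CPM in the 3A4 libraries, against 255, 212.5 and 192 CPM in the DMSO libraries (log2 fold change 0.55 ± 0.13, adjusted p = 0.0177). BCLAF1 had 144, 198 and 116 CPM in the 3A4 libraries, against 77.9, 89.6 and 93.7 CPM in the DMSO libraries (log2 fold change 0.81 ± 0.23, adjusted p = 0.0348). CLK3 had 53.9, 37.9 and 49.1 CPM in the 3A4 libraries, against 70.8, 59.4 and 74.3 CPM in the DMSO libraries (log2 fold change -0.54 ± 0.15, adjusted p = 0.039). The groups of each of the 3 genes did not overlap, which also held for 36.1% of all genes. None of the 3 calls was secure. Leaving out replicate 2 of 3A4, replicate 3 of DMSO, or both shallow libraries of the line left 0. The replicate block gave 10, DESeq2 7 and a fit of all 36 libraries 9. The shares of all genes called in those fits are not given here. In PANC-1 0 members were called, against 7.37% of genes. SRSF8, TRA2A, TRA2B, HNRNPA0 and HNRNPH3 had an unadjusted p under 0.05, DESeq2 called 0, and the lowest adjusted p was 0.122, for HNRNPH3 at a log2 fold change of 0.35. A fit without the 1E5 libraries called 3 members there, HNRNPH3 higher and HNRNPH2 and SRSF8 lower.

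Set against each other at the same dose and time, the 2 inverse agonists differed in these genes in MIA PaCa-2 and PANC-1. All 22 members called in MIA PaCa-2 were higher with 3A4 than with 1E5. That is 56.4% of the 39, against 17.2% of all genes called higher and 15.1% called lower. Any call was made for 32.4% of genes. Among genes at or above the lowest member's mean level 26.4% were called higher and 17.6% lower. These 1E5 libraries are the ones already set against DMSO, so the values are given side by side and do not add a second line of evidence. SRSF7 had 253, 247 and 216 CPM in the 3A4 libraries, against 76.8, 72.1 and 59.3 CPM in the 1E5 libraries (log2 fold change 1.78 ± 0.15, adjusted p = 4.73e-06). HNRNPL had 334, 324 and 307.5 CPM in the 3A4 libraries, against 129.8, 134 and 139.7 CPM in the 1E5 libraries (log2 fold change 1.26 ± 0.13, adjusted p = 2.01e-05). In both, every 3A4 library was far above the highest 1E5 library, and groups did not overlap in 50.7% of all genes. HNRNPA2B1 had 1449, 1878 and 1403 CPM in the 3A4 libraries, against 633, 675 and 492 CPM in the 1E5 libraries (log2 fold change 1.39 ± 0.17, adjusted p = 6.58e-05). SRSF2 had 85.8, 108 and 73.0 CPM in the 3A4 libraries, against 40.5, 44.3 and 37.1 CPM in the 1E5 libraries (log2 fold change 1.13 ± 0.15, adjusted p = 0.000147). By class, 6 of 11 SRSF proteins, 2 of 6 SR-related proteins, 13 of 18 hnRNPs and 1 of 4 kinases were higher.

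In PANC-1, 19 members were higher and 4 lower with 3A4 than with 1E5, beside 37.3% of all genes called, 18.5% higher and 18.8% lower. Among genes at or above the lowest member's mean level 21.5% were called higher and 24.4% lower. HNRNPM had 238, 218 and 219 CPM in the 3A4 libraries, against 70.35, 57.4 and 52.7 CPM in the 1E5 libraries (log2 fold change 1.90 ± 0.14, adjusted p = 4.22e-06). HNRNPA2B1 had 1342, 1179 and 1184 CPM in the 3A4 libraries, against 457, 387 and 428 CPM in the 1E5 libraries (log2 fold change 1.54 ± 0.12, adjusted p = 6.73e-06). The groups of both genes were widely apart, and groups did not overlap in 49.1% of all genes. HNRNPR had 277, 260 and 272 CPM in the 3A4 libraries, against 127, 144 and 103.5 CPM in the 1E5 libraries (log2 fold change 1.11 ± 0.13, adjusted p = 6.71e-05). THRAP3 had 225, 217 and 200.4 CPM in the 3A4 libraries, against 149.8, 135 and 131 CPM in the 1E5 libraries (log2 fold change 0.63 ± 0.09, adjusted p = 0.000343). Lower with 3A4 were CLK3 (-0.99), SRRM1 (-0.80), HNRNPH3 (-0.40) and TRA2A (-0.38). Without replicate 2 of 1E5 the count was again 23, of which 20 higher and 3 lower, beside 3702 higher and 3584 lower of 19166 genes. HNRNPL was now among the higher at a log2 fold change of 1.42. In BxPC-3 1 member was called, beside 0.144% of genes. HNRNPDL had 226, 249 and 249 CPM in the 3A4 libraries, against 329, 352 and 354 CPM in the 1E5 libraries (log2 fold change -0.51 ± 0.09, adjusted p = 0.0482), and the call was lost when any 1 of the 6 libraries was left out, with adjusted p up to 0.203. For the other 38 genes of BxPC-3 the log2 difference between the compounds lay between -0.78 (HNRNPH2) and 0.28 (HNRNPL).

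Other genes of the splicing machinery were counted for comparison. With 1E5, 23.4% of all genes tested were called lower and 23.6% higher in MIA PaCa-2. In PANC-1 these shares were 19.3% and 19.7%. In MIA PaCa-2 with 1E5, 30 of 43 core spliceosome genes fell and 1 rose (median log2 fold change -0.494), led by the Sm core proteins SNRPD2 (-2.08), SNRPD3 (-1.82) and SNRPF (-1.67). Of 40 other splicing regulators 15 fell and 5 rose, with PTBP3 at 1.28 and PSPC1 at -1.24. Of the kinases and import receptors of SR proteins 4 of 6 were higher and 1 lower, a list too short to show a direction. TNPO3, the transportin that carries SR proteins into the nucleus, had a log2 fold change of 1.11 and TNPO1 of 1.35. SRPK1, the cytoplasmic SR protein kinase, had one of 0.44. Among 14 genes of nonsense-mediated decay and the exon junction complex 6 rose and 4 fell, with SMG1, the kinase of UPF1, at 1.12 and EIF4A3 at -1.10. In PANC-1, 19 of 43 core genes fell and 3 rose, and BUD31 (1.18), SNRPD1 (-1.07) and U2AF2 (-1.01) changed most. Other regulators had 19 of 43 lower and 2 higher there, with the paraspeckle protein SFPQ at -2.06 and EWSR1 at -1.63. The SR kinases and importers of PANC-1 had 2 higher and 2 lower of 6, and the decay genes 3 higher and 1 lower of 14. Without replicate 2 of 1E5 in that line, 19 of 43 core genes were lower and 2 higher, 19 of 44 other regulators lower and 1 higher, 2 SR kinases and importers lower and 2 higher, and 1 decay gene lower and 4 higher.

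Of all genes tested with 3A4 against 1E5, 17.2% were called higher and 15.1% lower in MIA PaCa-2. In PANC-1 these shares were 18.5% and 18.8%. With 3A4 against 1E5 in MIA PaCa-2, 28 of 43 core genes were higher and 1 lower, SNRPF (1.66), SNRPG (1.63) and SNRPD3 (1.57) first. Of the other regulators 11 of 40 were higher and 1 lower, with SFPQ at 1.33 and PTBP2 at 1.22. The decay and exon junction genes had 5 higher and 3 lower of 14, with EIF4A3 at 1.18, MAGOH at 0.97 and UPF3A at -0.95. In PANC-1, 21 of 43 core genes were higher and 1 lower, with SNRPB (1.23), SNRPD1 (1.16) and SNRPF (1.10) first. Other regulators had 16 of 43 higher and 4 lower there, SFPQ (2.09), PTBP2 (1.84) and EWSR1 (1.70) first, and the decay genes 2 higher and 3 lower of 14, with SMG6 at -0.87, CASC3 at -0.86 and UPF1 at 0.53. Without replicate 2 of 1E5, 23 of 43 core genes were higher and 1 lower in PANC-1, 17 of 44 other regulators higher and 5 lower, and 3 decay genes higher and 3 lower.

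**Figure D4:**
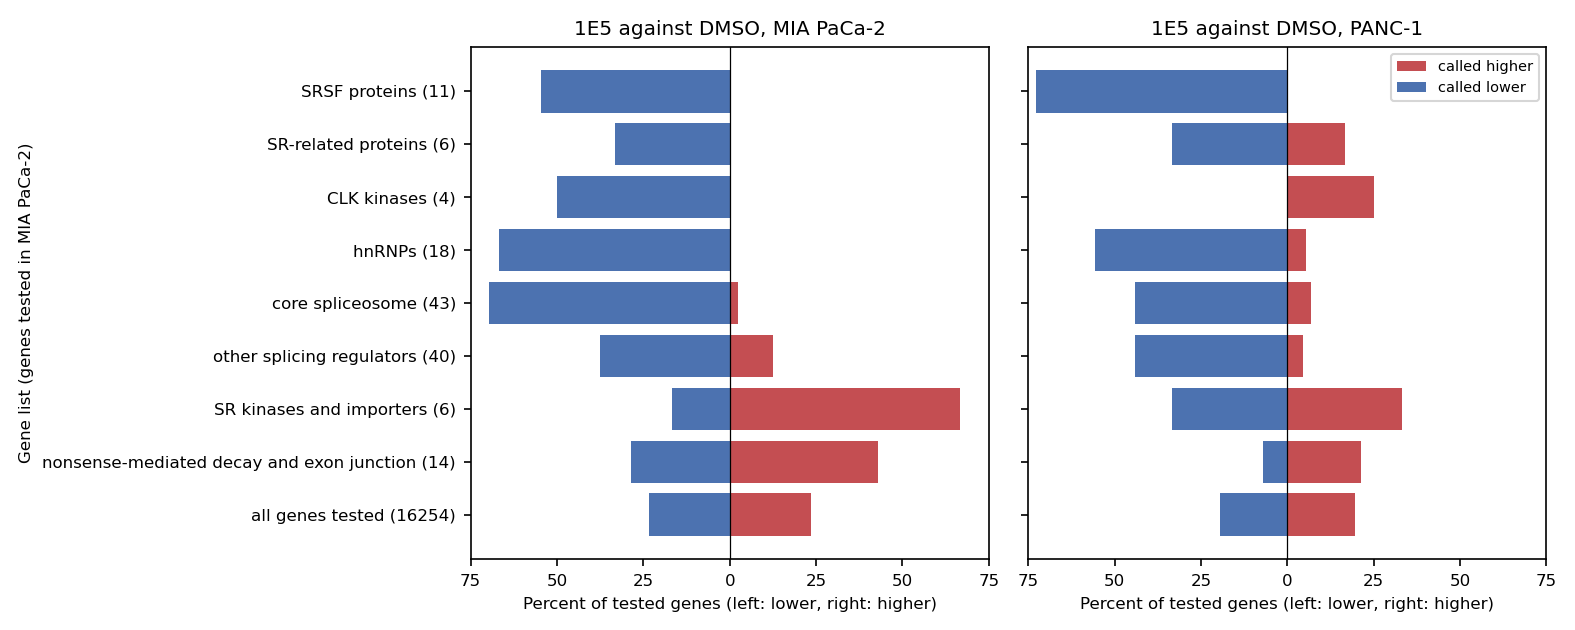
Percent of genes called higher (right of 0) and lower (left of 0) with 1E5 against DMSO in MIA PaCa-2 and PANC-1, for the member classes, the other splicing lists and all genes tested. SRSF proteins and hnRNPs extend to the left, and so do the core spliceosome genes and, mostly, the other splicing regulators. The SR kinases and importers of MIA PaCa-2 extend more to the right, with 4 of 6 higher.

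Levels can be compared between genes only per exon length. In DMSO libraries the highest member was HNRNPK in BxPC-3, at 165.5 ± 21.4 CPM per kb, HNRNPAB in MIA PaCa-2, at 147 ± 14.9, and HNRNPF in PANC-1, at 157 ± 8.06 (SD, n = 3 each). The lowest were kinases: CLK4 in BxPC-3 at 2.045 ± 0.176 CPM per kb and CLK3 in the other lines, at 2.30 ± 0.119 in PANC-1 and 3.14 ± 0.273 in MIA PaCa-2. The length used joins all annotated exons of a gene, 20443 bases for CLK3 and 7924 for CLK4. CLK4 held fewer counts over the 36 libraries, 14717 against 38210 for CLK3, so the order of these kinases depends on that length. In BxPC-3 the median level was 52.8 CPM per kb for the hnRNPs, 27.4 for the SRSF proteins, 22.1 for the SR-related proteins and 6.21 for the kinases. In the same order it was 43.6, 25.5, 15.9 and 9.07 CPM per kb in MIA PaCa-2, and 38.6, 26.5, 18.9 and 5.56 in PANC-1. The DMSO level differed among lines in 27 of the 39 members, beside 73.4% of all genes, so this count is near the background. CLK2 was higher in MIA PaCa-2 than in PANC-1, at 25.1 ± 2.17 against 9.86 ± 1.08 CPM per kb (log2 difference 1.35), and SRSF8 lower, at 5.72 ± 1.04 against 13.8 ± 0.347 CPM per kb (-1.26). SRRM2 was lower in MIA PaCa-2 than in PANC-1 as well, at 23.95 ± 3.33 against 57.75 ± 4.17 CPM per kb (-1.27). SRSF1, SRSF2, SRSF3, SRSF11, HNRNPA0, HNRNPA2B1, HNRNPH2, HNRNPH3, HNRNPK, HNRNPM, HNRNPU and THRAP3 did not pass this test.

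**Figure D5:**
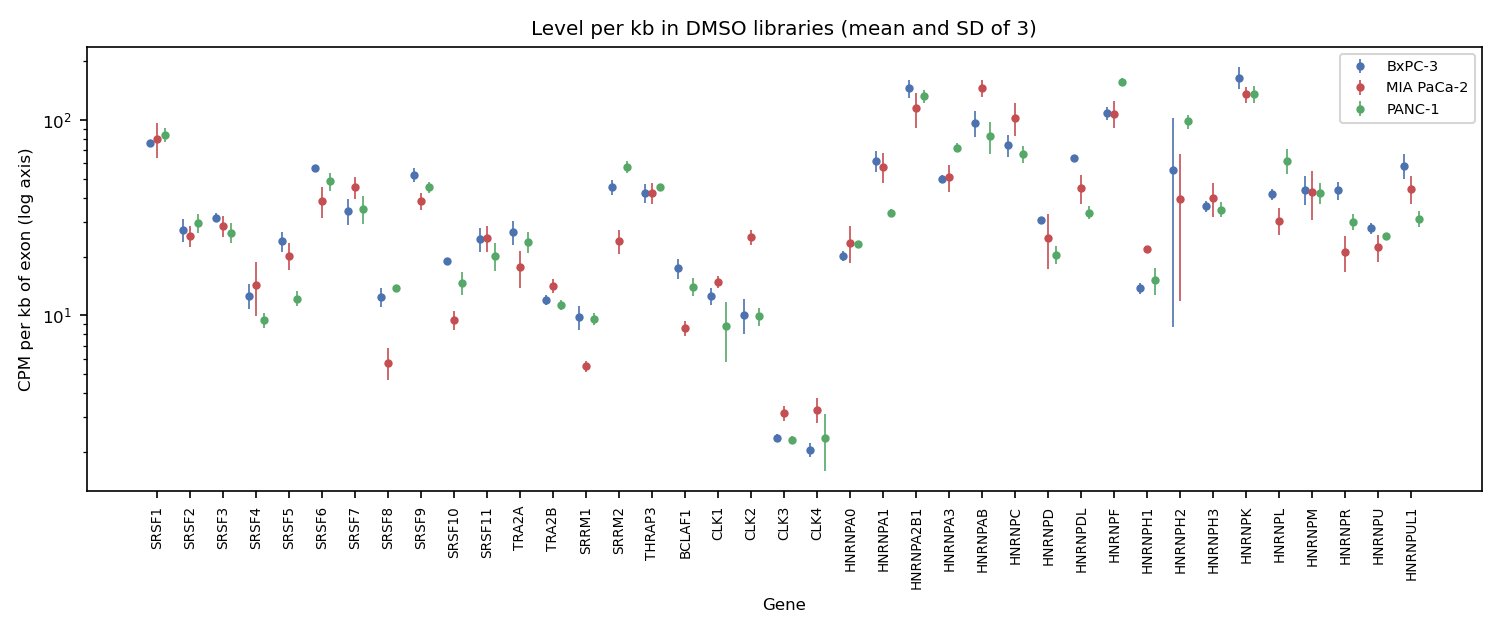
DMSO level of each of the 39 genes in CPM per kb of exon (log axis), by line, as means with SD over 3 libraries. The hnRNPs reach 147 to 166 CPM per kb and the kinases lie at the low end.

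The promoters of members were read because many members fell together with 1E5. RefSeq's GRCh38.p14 table held 36 of the 39 genes; HNRNPA1, SRSF2 and TRA2A were not matched. The 250 bases before each listed start were searched on both strands for 11 motifs. The E box CACGTG, the site bound by MYC, USF and related helix-loop-helix factors, was present for 9 of the 36 members, 25.0%, and for 9.73% of 15843 protein-coding genes. The CCAAT box (CCAAT) was present for 50.0% of members and 40.2% of protein-coding genes, and the GC box (GGGCGG) for 69.4% and 62.1%. The nuclear receptor core motif AGGTCA was present for 2.78% and 13.6%. E2F letters stood at 8.33% and 3.18%, TATA at 16.7% and 11.9%, ETS at 11.1% and 14.0% and CHR at 11.1% and 14.2%. CRE, NRF1 and YY1 letters were at 0% of members, and at 2.73%, 1.72% and 0.353% of protein-coding genes. None of these differences was tested. Of the 9 genes with CACGTG, 5 fell with 1E5 in MIA PaCa-2, while 3 fell and 1 rose in PANC-1; of the 27 without it, 15 fell in MIA PaCa-2, and 17 fell and 2 rose in PANC-1. The letters thus stood at about the same share among members that fell in MIA PaCa-2 and those that did not, and no more often among those that fell in PANC-1. Shown are 5 of the matches, those whose window overlaps no exon, with CACGTG in capitals.
CLK2 (GRCh38.p14, chr1:155273554-155273593, minus strand): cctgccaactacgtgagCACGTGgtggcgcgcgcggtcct
CLK4 (GRCh38.p14, chr5:178627139-178627178, minus strand): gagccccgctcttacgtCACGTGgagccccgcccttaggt
HNRNPD (GRCh38.p14, chr4:82373996-82374035, minus strand): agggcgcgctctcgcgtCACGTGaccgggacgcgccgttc
HNRNPH2 (GRCh38.p14, chrX:101408163-101408202, plus strand): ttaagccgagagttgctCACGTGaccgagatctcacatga
THRAP3 (GRCh38.p14, chr1:36224230-36224269, plus strand): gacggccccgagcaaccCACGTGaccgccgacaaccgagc
Of these 5 genes CLK2, HNRNPD and THRAP3 fell with 1E5 in MIA PaCa-2, HNRNPH2 and THRAP3 fell in PANC-1, and CLK4 was called in neither line. A match is a description of the letters and no measure of binding. The members lie on 18 chromosomes, 8 of them on chromosome 1, and HNRNPD and HNRNPDL are neighbours on chromosome 4, 48060 bases apart.

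Replicates of a group differed in these genes by a median coefficient of variation of 10.2%. HNRNPF varied least (median 5.56% over the 12 groups) and HNRNPH2 most (41.2%). HNRNPH2 fell into 2 ranges: 7 of the 36 libraries had 3.10 to 28.3 CPM and 29 had 90.7 to 247 CPM, the low ones being 2 replicates of GW3965 in BxPC-3 and 1 replicate each of 3A4 and DMSO in BxPC-3, of GW3965 and DMSO in MIA PaCa-2 and of 1E5 in PANC-1. The read-through locus RPL36A-HNRNPH2 overlaps it and held 17.3% as many counts over all libraries. Counts could also be shared with copies or with genes on the other strand: copies by name held 25.6% as many counts as HNRNPA3, 25.0% for BCLAF1 and 5.94% for HNRNPC, and opposite-strand neighbours 48.3% for SRSF9 (GATC), 47.4% for SRSF2 (MFSD11), 23.6% for HNRNPUL1 (TGFB1), 23.2% for SRRM2 (ELOB), 19.7% for CLK2 (HCN3) and 16.8% for HNRNPA2B1 (CBX3). Reads of such pairs cannot be told apart where strand was not used in counting. Summed with its copies, BCLAF1 had a log2 fold change of -0.84 with 1E5 in PANC-1, and the number of members called with 1E5 in MIA PaCa-2 was 22, as without the copies.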

How the data were processed

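The deposited table holds whole-number counts per gene, which the authors made from stranded total RNA libraries; Trim Galore 0.4.4, HISAT2 2.0.2, SAMtools 1.3, StringTie 1.3.1c and the genome build GRCh38 (hg38) are listed in the submitters' processing notes, without their settings. Of 58658 lines, 407 transcripts and 8 assembled loci, at most 0.00396% of a library's counts, were left out. Genes were placed with GENCODE 29. Counts of each line's 12 libraries were fitted with edgeR 4.0.16 (group means, TMM scaling, filterByExpr, quasi-likelihood F test), and a second fit of all 36 libraries tested differences among lines and gave CPM per kb of exon. Genes with a Benjamini-Hochberg adjusted p under 0.05 over all genes tested were called. DESeq2 1.42.0, other scalings, no filter, a replicate block, the compared groups alone, all lines in 1 fit and left-out libraries were alternatives; summing members with their copies and counting the other lists without replicate 2 of 1E5 in PANC-1 were added after seeing the data. The script was tested on simulated data. The members and lists were chosen with earlier results of these data known.

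Per-library values are given for up to 4 called members with the highest and 4 with the lowest fold change in each ligand contrast, for members called alike in 2 lines, and for up to 4 members with the smallest p among lines and between the inverse agonists; up to 3 called genes of each other list are named, and values of 2 of these are not reported here. Intervals of fold changes are 95% intervals of the fit. Libraries held 2701393 to 26026684 counts. Replicates differed beyond counting error in every group, with a chi-square per degree of freedom of 8.1 to 140.0, so standard errors come from the spread between libraries.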

Additional observations from a re-analysis of the deposited data

Results flagged for a closer look

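The response to 1E5 differed among the 3 lines in 23 members by the F test of the ligand-by-line terms, with 3 libraries a group. The adjusted p-values under 0.001 were those of HNRNPA2B1 (1.08e-06), SRSF7 (1.95e-06), HNRNPM (2.36e-05), CLK3 (3.95e-05), CLK2 (0.000386), HNRNPR (0.00047), HNRNPH3 (0.000479) and BCLAF1 (0.00069). Those from 0.001 up to 0.02 were SRSF3 (0.00164), SRSF9 (0.00215), SRSF10 (0.00254), HNRNPU (0.00316), HNRNPD (0.0132), THRAP3 (0.0132) and TRA2B (0.0169), and those above were HNRNPK (0.0206), SRSF2 (0.0276), SRSF8 (0.0314), HNRNPC (0.0326), HNRNPDL (0.0339), SRSF1 (0.0373), HNRNPA1 (0.0396) and HNRNPF (0.0473). In BxPC-3 none of them was called with 1E5, and CLK3 is the member with called changes of opposite sign in MIA PaCa-2 and PANC-1.

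The response to 3A4 differed among lines for BCLAF1 (0.0117), HNRNPA0 (0.0273), HNRNPA2B1 (0.0355) and HNRNPU (0.0406), again as adjusted p-values of the same test. The 3 lines differ in medium for BxPC-3 and in depth for MIA PaCa-2, and the part of either in these differences was not tested. Groups of 3 libraries were not tested for outlying samples.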

How the results depend on the processing

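The 22 members called with 1E5 in MIA PaCa-2 became 14 with library totals alone, of which 13 were among the 22 and 1 was higher, and 13 with no filter on low counts, all among the 22. The median log2 fold change of all genes there was 0.233 with library totals and 0.0496 without, a shift of 0.183, and library totals shifted it by -0.117 for 3A4 against 1E5 in that line. The single call of 3A4 against 1E5 in BxPC-3 became 0 with library totals, no filter, the compared groups alone or all 36 libraries in 1 fit. Against the 3 calls of 3A4 in MIA PaCa-2, the replicate block gave 10, DESeq2 7, the compared groups alone 1, the fit without the 2 shallowest libraries 0 and all 36 libraries 9. Against 0 calls of 3A4 in PANC-1, library totals gave 1 (HNRNPH3), the compared groups alone 2 (HNRNPH2 and SRSF8) and the fit without the 1E5 libraries 3 (HNRNPH2, HNRNPH3 and SRSF8). In BxPC-3 the replicate block and DESeq2 each gave 1 for GW3965 (SRSF3) and 1 for 3A4 (HNRNPDL), against 0. The 23 members whose 1E5 response differed among lines became 15 with no filter, and the 4 for 3A4 became 2 with RLE scaling, 1 with library totals, 1 with no filter and 7 with the block. The cause of these changes was not tested. Shares of all genes called under these alternatives are not given, so the counts do not show whether members moved more than other genes. No called member changed direction under any alternative run.

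Leaving out 1 library at a time gave 20 to 26 calls for 1E5 in PANC-1, 15 to 18 in MIA PaCa-2, 16 to 23 and 17 to 21 for 3A4 against 1E5 in those lines, 0 to 0 for that contrast in BxPC-3, 0 to 3 for 3A4 against DMSO in MIA PaCa-2, and 0 to 0 for the contrasts with 0 calls. Among lines it gave 16 to 23 calls for 1E5, 0 to 6 for 3A4, 22 to 28 for the DMSO level and 0 for GW3965.

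Same-numbered libraries of a line deviated together in part. Of 36 libraries 33 correlated best with their own number, all 4 in 8 of 9 sets of a line and number, a hint of pairing from the data. Of 54 same-numbered pairs 35 had a correlation of deviations from the group means over 0.1, and the lowest was -0.0481. As not every pair passed 0.1 and the labels tie the numbers to no batch, they were not taken as pairs. The p-values of the main fits therefore leave any pairing out of account. The replicate block gave 22 calls for 1E5 in MIA PaCa-2, 25 in PANC-1, 22 and 23 for 3A4 against 1E5 in those lines and 26 for 1E5 among lines, within 1.5 times the counts without it. The block gained CLK1 and SRSF2 in PANC-1. It changed the counts by more for 3A4 against DMSO in MIA PaCa-2 and for 3A4 among lines, as given above. The same held for GW3965 and 3A4 in BxPC-3, so these counts depend on how the replicate numbers are treated. Depth is lowest in MIA PaCa-2, at 2701393 counts in its shallowest library, but replicates differed beyond counting error there too.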
